A study of Mus musculus with 12 samples.

Results

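Induced pluripotent stem cells (iPSC) were compared with the mouse embryonic fibroblasts (MEF) that reprogramming starts from. The comparison rests on the 4 libraries labelled MEF 1, MEF 2, iPSC 1 and iPSC 2, out of 12 RNA-seq libraries in the series. The other 8 libraries are populations sorted on days 3 and 6 of reprogramming (d3_Ineff, d3_Eff, d6_Ineff and d6_Eff, replicates 1 and 2). They enter the filter that sets which genes are tested, the scaling of the libraries and the estimate of the spread between replicates. Both groups carry the strain label 129SV/Jae/C57BL6J, and both have "3/4" in their titles, which the labels do not explain. MEF were grown in fibroblast medium and iPSC in embryonic stem cell medium, so cell state and medium cannot be told apart. All cells were detached with trypsin, stained with antibodies and collected by flow cytometry. RNA came from a micro-scale column kit, and libraries from a directional kit with poly-A selection. The labels give no age, no sex and no number of animals or clones, and they do not say whether replicates 1 and 2 were separate cultures, so the p-values measure only the spread between these samples.

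Fibroblasts are mesenchymal cells that secrete and cross-link collagen matrix, grip it through actin stress fibres, and keep a memory of their position in the body through Hox genes. Pluripotent stem cells divide quickly, hold together as epithelial colonies through E-cadherin, and are kept undifferentiated by a circuit of transcription factors around OCT4, SOX2 and NANOG. Passing from the first state to the second, which is what reprogramming by such factors does, requires that the fibroblast programme be silenced and that the pluripotency circuit, normally shut by DNA methylation and Polycomb proteins, be opened.

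Total gene counts were 20978376 in MEF 1, 9284060 in MEF 2, 22577091 in iPSC 1 and 14911103 in iPSC 2. Marker genes set the groups apart as the labels name them. Summed over 10 fibroblast markers (Col1a1, Col1a2, Col3a1, Thy1, Pdgfra, Pdgfrb, Vim, Twist1, Prrx1 and Snai2), the level was 48117 and 17992 CPM in MEF 1 and 2 against 118 and 119 CPM in iPSC 1 and 2, where CPM is a count per 1e+06 gene counts after scaling of the libraries. Summed over 10 pluripotency markers (Pou5f1, Sox2, Nanog, Esrrb, Zfp42, Tfcp2l1, Dppa5a, Utf1, Tdgf1 and Cdh1) it was 7.07 and 7.12 CPM in MEF and 9382 and 9921 CPM in iPSC. MEF 2 stands apart: 47.2% of its uniquely aligned reads lay outside genes, against 5.10% in MEF 1 and 6.32% and 8.91% in the iPSC libraries, and the log2 CPM of MEF 1 and MEF 2 correlated at 0.930 across genes against 0.966 for the iPSC pair. Its largest gene, Lars2, took 5.25% of gene counts, against 0.122% in MEF 1 and 0.0526% and 0.237% in iPSC. The 10 largest genes took 16.7% in MEF 2, 9.02% in MEF 1 and 6.15% and 6.44% in iPSC. The gene lists below are therefore given with and without MEF 2, apart from markers of other cell types. A fit without MEF 2 has MEF 1 alone in that group, and the reverse. Its calls hold no spread between MEF replicates and take the spread from the other groups. Pairs of values are in the order replicate 1 and replicate 2.

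Of 16240 genes tested, 4221 (26.0%) were higher in iPSC and 4336 (26.7%) were lower at a Benjamini-Hochberg adjusted p under 0.05 in edgeR's quasi-likelihood test, 52.7% in all. The shares of 26.0% and 26.7% are the background for the counts of list members below. More than 2-fold differences were called for 2276 genes (14.0%) that were higher and 2722 (16.8%) that were lower. Without MEF 2 the counts were 4113 (25.3%) and 4815 (29.6%), 55.0% in all. Of the genes called with all libraries, 3560 of the higher ones and 4050 of the lower ones were called in the same direction without MEF 2, 661 and 286 lost their call, and none was called in the opposite direction. The 2 states also differed in which genes were seen at all: 165 genes had 0 counts in both MEF libraries and at least 5 CPM in both iPSC libraries, and 104 genes had the reverse pattern. For the lists below that had no call in one direction by edgeR, that count was also 0 at an unadjusted p under 0.05 and by DESeq2 and limma voom, apart from Hox, germline and two-cell-stage genes. Medians "at the bounds", given where they differ, set genes with 0 counts in a group at their lower bound, computed against a floor of 3 counts over that group, and "at least N-fold" uses the same floor.

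**Figure D1:**
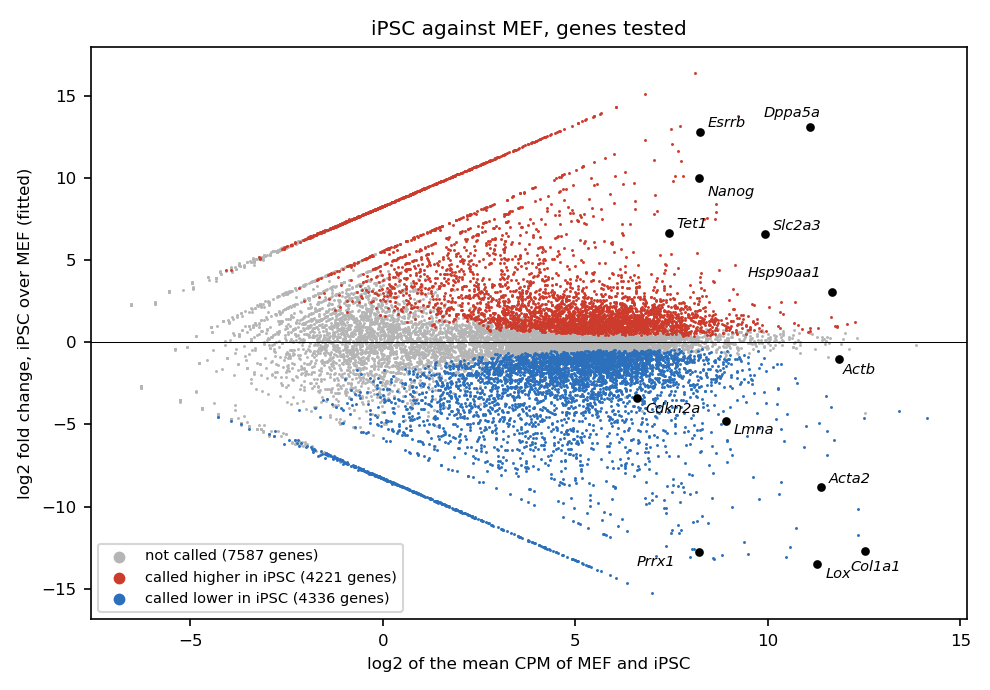
Fitted log2 fold change of iPSC over MEF (vertical axis) against the log2 of the mean CPM of the 2 groups (horizontal axis), 1 point per gene with counts in the 4 libraries; 4221 genes called higher are red, 4336 called lower are blue and the others grey. The straight edges are genes with 0 counts in 1 of the groups, whose fitted fold change depends on the prior count.

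**Figure D2:**
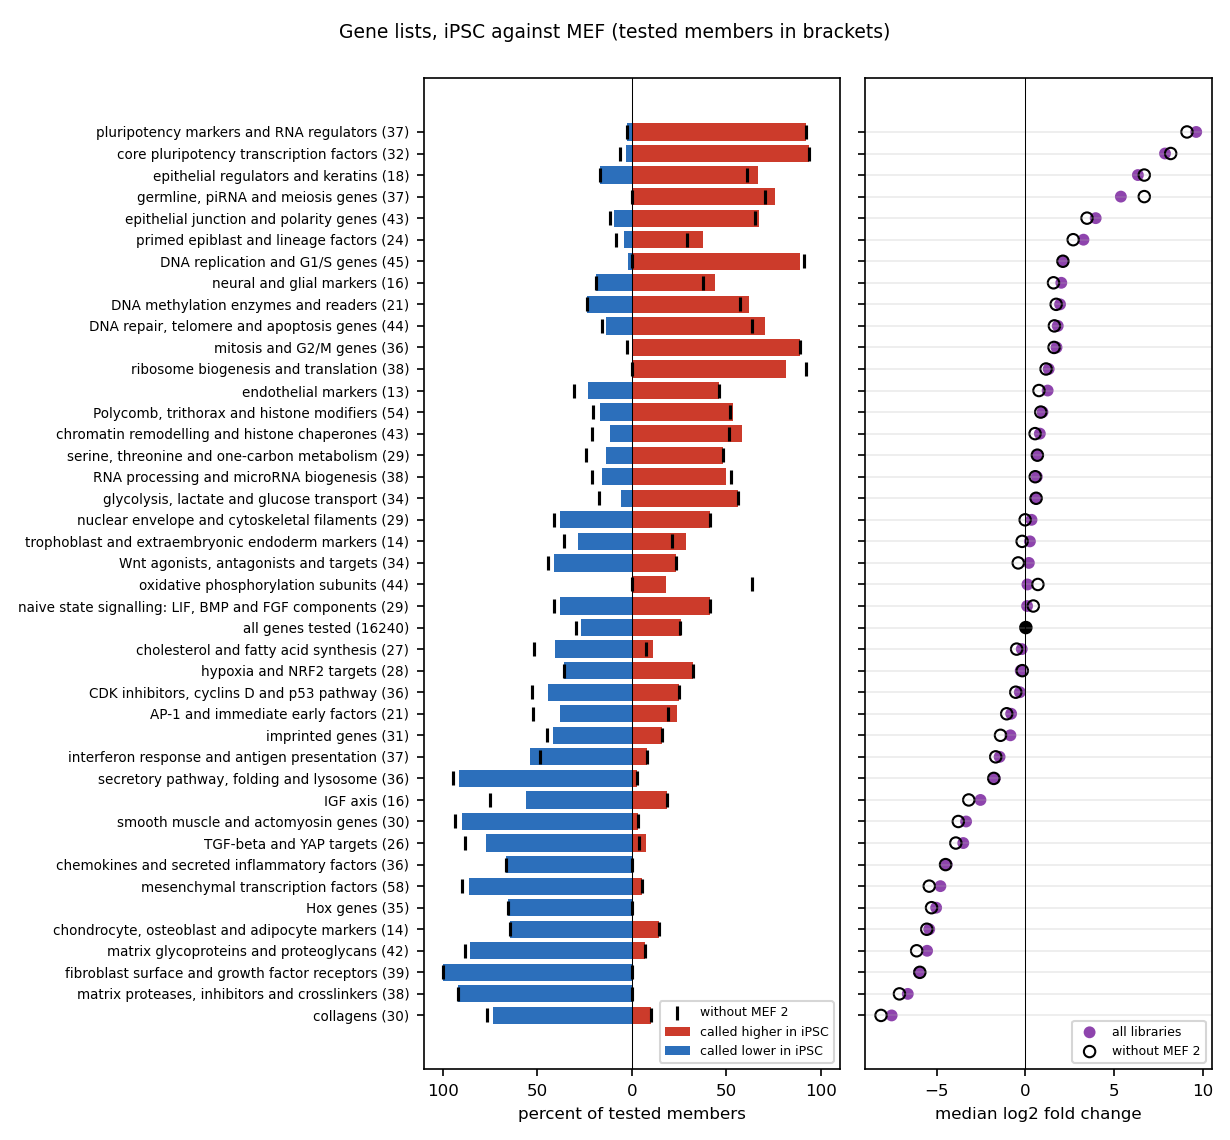
Gene lists ordered by median log2 fold change of iPSC over MEF, for lists with at least 10 tested members. Left, percent of tested members called higher (red) or lower (blue), with ticks for the counts without MEF 2; right, the median with all libraries (filled) and without MEF 2 (open). Pluripotency lists lie at the top, matrix and fibroblast surface lists at the bottom, and the calls of oxidative phosphorylation go from 8 to 28 when MEF 2 is left out.

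The largest differences in level, in CPM, pitted matrix and contractile genes of MEF against chaperone, nucleolar and glycolytic genes of iPSC. Col1a1, a chain of type I collagen, had 20038 and 3655 CPM in MEF against 2.02 and 1.45 CPM in iPSC, and its partner chain Col1a2 had 15707 and 4958 CPM in MEF against 2.58 and 3.49 CPM in iPSC. Lox, which cross-links collagen, had 4849.9 and 5135 CPM in MEF against 0.602 and 0.198 CPM in iPSC, and Acta2, smooth muscle actin, had 4710.1 and 5963 CPM in MEF against 16.0 and 7.12 CPM in iPSC. The lowest MEF library lay far above both iPSC libraries for each of them. Thbs1, Vim, Lgals1, Sparc, Fn1, Serpinh1, Tagln and Bgn made up the rest of the 12 largest decreases.

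In the other direction the largest increase was that of Hsp90aa1, an inducible cytosolic HSP90 chaperone, at 624 and 769 CPM in MEF against 5551 and 6105 CPM in iPSC (log2 fold change 3.07 ± 0.25 (SE), adjusted p = 2.50e-06). Its constitutive partner Hsp90ab1 had 3306 and 2485 CPM in MEF against 6812 and 7069 CPM in iPSC (log2 fold change 1.26 ± 0.22). The next was Dppa5a, an RNA-binding protein of the early embryo, at 0.258 and 0.977 CPM in MEF against 4121 and 4643 CPM in iPSC. Npm1, an abundant protein of the nucleolus, had 1215 and 2049.6 CPM in MEF against 4688 and 4804 CPM in iPSC, and Ncl (nucleolin) had 736 and 287 CPM in MEF against 2784 and 2903 CPM in iPSC. Trim28, the corepressor that silences retroviral elements with zinc finger proteins, had 481 and 322 CPM in MEF against 2149 and 2254 CPM in iPSC. Pkm, Aldoa and Eno1 of glycolysis, the glucose transporter Slc2a3, and Serbp1 and Ptma completed the 12. Groups did not overlap for any of these genes, as the rule that chose them requires. Several of them, Npm1 and Ptma among them, have processed copies elsewhere in the genome, and reads that aligned to several places are not in the counts, so their levels are uncertain.

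**Figure D3:**
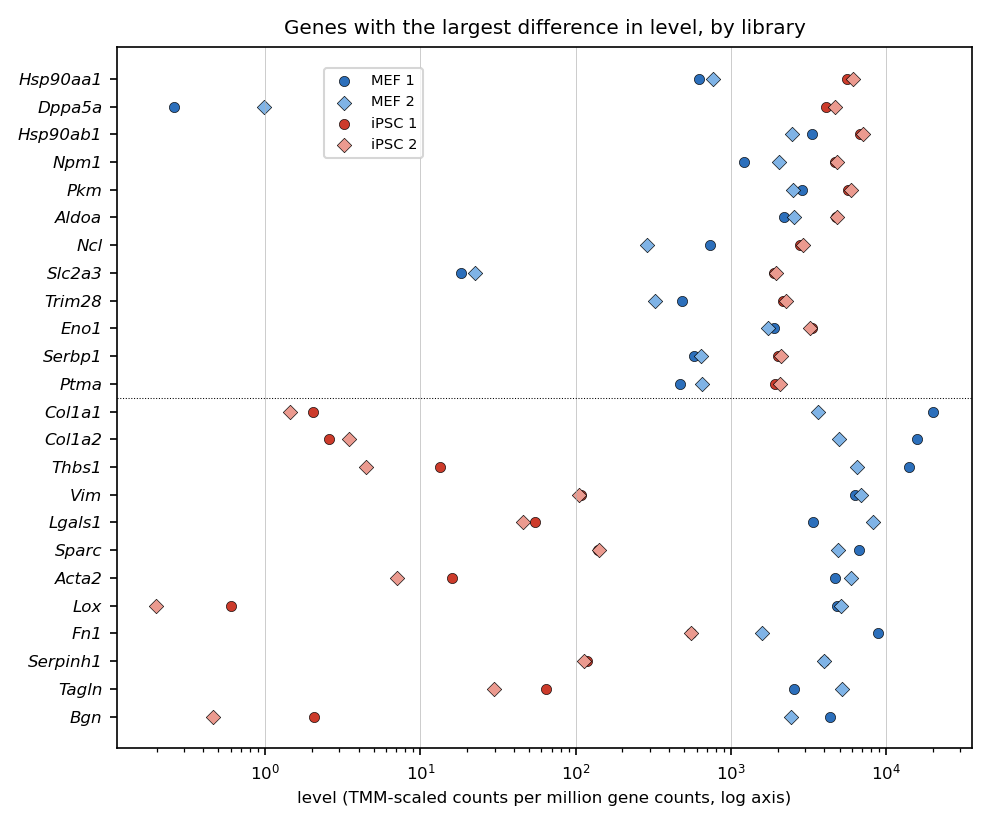
Level in each library (CPM, log axis) of the 12 called genes with the largest increase and the 12 with the largest decrease in mean CPM from MEF to iPSC. Blue symbols are MEF, red symbols iPSC; circles are replicate 1 and diamonds replicate 2. For Col1a1 the MEF libraries lie at 20038 and 3655 CPM and the iPSC libraries at 2.02 and 1.45 CPM.

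Among transcription factors of the pluripotency circuit, 30 of 32 tested genes were higher in iPSC and 1 was lower, with a median log2 fold change of 7.88 (7.63 at the bounds) against 0.04 over all genes tested. Without MEF 2 the counts were 30 and 2. Pou5f1, which encodes OCT4, had 0.826 and 0.279 CPM in MEF against 576 and 645 CPM in iPSC (log2 fold change 9.86 ± 0.51, adjusted p = 1.09e-07). Sox2 had 4.28 and 2.65 CPM in MEF against 637 and 655 CPM in iPSC (log2 fold change 7.48 ± 0.37), and Nanog had 0.723 and 0.279 CPM in MEF against 636 and 557 CPM in iPSC (log2 fold change 9.98 ± 0.52). All 3 were close to absent in MEF and reached similar levels in both iPSC libraries. The counts cannot separate the cell's own transcripts from those of a reprogramming transgene, if one is present.

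The naive-state factors followed. Zfp42 (REX1) had 0.361 and 0.279 CPM in MEF against 398 and 369 CPM in iPSC, and Tfcp2l1 had 0.568 and 2.09 CPM in MEF against 279 and 276 CPM in iPSC. Esrrb had 2 reads in MEF and 593 and 604 CPM in iPSC, a ratio of 7929-fold (exact 95% counting interval 2195 to 65473). Prdm14, a repressor of DNA methylation and of FGF signalling, had 0 counts in MEF against 54.3 and 50.4 CPM in iPSC, at least 463-fold higher. Zscan10, likewise without a read in MEF, was at least 678-fold higher.

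The exceptions were the factors that fibroblasts also use. Klf4 had 70.2 and 25.4 CPM in MEF against 229.9 and 200.5 CPM in iPSC (log2 fold change 2.16 ± 0.40), and Klf2 had 48.0 and 42.6 CPM in MEF against 242 and 267 CPM in iPSC (log2 fold change 2.49 ± 0.24). Both were well expressed in MEF, and no MEF library reached an iPSC level. Myc, the proto-oncogene that is often part of reprogramming cocktails, went the other way with 86.9 and 51.9 CPM in MEF against 11.0 and 11.1 CPM in iPSC (log2 fold change -2.65 ± 0.24, adjusted p = 5.24e-06). Rarg, a retinoic acid receptor, was not called with all libraries (147 and 64.8 CPM in MEF against 99.3 and 91.9 CPM in iPSC, adjusted p = 0.691). It was called lower without MEF 2 (log2 fold change -0.67) and higher without MEF 1 (0.56).

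OCT4 and SOX2 bind side by side on a composite motif, searched for here as the 15-base OCT4-SOX2 consensus with up to 2 mismatches on either strand. The windows searched run from 250 bases before to 50 bases after each RefSeq gene start (build GRCm38.p6). RefSeq windows were found for 23 of the 32 factors, 34 windows in all, and the motif lay in 2 of them (5.88%), both of Nanog, against 0.122% of 32851 windows of all genes. The Nanog window is shown because it is the one member whose window holds the motif, in capitals, starting 152 bases before the start.
Nanog (GRCm38.p6 chr6:122707315-122707614, plus strand): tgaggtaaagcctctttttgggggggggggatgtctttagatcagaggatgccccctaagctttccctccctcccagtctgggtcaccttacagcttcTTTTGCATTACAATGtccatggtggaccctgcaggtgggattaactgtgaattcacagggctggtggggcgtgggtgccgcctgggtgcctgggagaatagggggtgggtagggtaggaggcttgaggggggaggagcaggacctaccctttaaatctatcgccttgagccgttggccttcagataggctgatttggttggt
A match is a description of the letters, and its absence from other windows says nothing about binding elsewhere.

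Markers and RNA regulators of the pluripotent state moved as a block, with 34 of 37 tested genes higher, 1 lower and a median log2 fold change of 9.64 (8.42 at the bounds). Without MEF 2 the counts were the same numbers, 34 and 1. Lin28a, which blocks let-7 microRNA maturation, had 0 and 0.419 CPM in MEF against 417 and 392 CPM in iPSC (adjusted p = 3.33e-07). Trim71 (LIN41), a let-7 target that acts on mRNA, had 0.258 and 0 CPM in MEF against 41.6 and 53.04 CPM in iPSC, and Dppa3 (STELLA), a maternal factor, had 0 counts in MEF against 38.2 and 35.8 CPM in iPSC, at least 327-fold higher. Dppa2 had 1 read in MEF and 53.5 and 44.4 CPM in iPSC, a ratio of 1324-fold (exact 95% counting interval 237 to 52341). Lefty2, an inhibitor of NODAL signalling, was at 0 counts in MEF and 89.6 and 85.7 CPM in iPSC. The marker that fell was Cd24a, a surface glycoprotein that fibroblasts of this series held at 259.9 and 453 CPM against 34.5 and 28.4 CPM in iPSC (log2 fold change -3.50 ± 0.28). Tdh, which had 0 counts in MEF against 0.559 and 0.264 CPM in iPSC, was not called, except without d6_Ineff 1 or d6_Ineff 2. Tdh, threonine dehydrogenase, is known as an abundant enzyme of mouse embryonic stem cells, and it was close to undetected here.

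The genes that carry the signals of naive culture did not move as a block. Of 29 tested components of LIF, BMP and FGF signalling, 12 were higher and 11 lower, with a median of 0.10, and without MEF 2 the counts were 12 and 12. For LIF signalling, the specific receptor Lifr had 13.3 and 5.03 CPM in MEF against 52.5 and 47.1 CPM in iPSC (log2 fold change 2.40 ± 0.42), whereas the shared subunit Il6st (gp130) had 651 and 293 CPM in MEF against 52.4 and 57.9 CPM in iPSC (log2 fold change -3.10 ± 0.32). The kinase Jak1 and the transcription factor Stat3 were lower as well, Stat3 with 228 and 96.1 CPM in MEF against 67.6 and 60.9 CPM in iPSC (log2 fold change -1.34 ± 0.32, adjusted p = 0.00437). For BMP signalling, the ligand Bmp4 had 49.9 and 32.1 CPM in MEF against 8.90 and 10.4 CPM in iPSC, the receptors Bmpr1a and Bmpr2 were lower with log2 fold changes of -1.28 ± 0.20 and -2.50 ± 0.45, and the target Id3 had 133 and 175 CPM in MEF against 7.91 and 4.28 CPM in iPSC (log2 fold change -4.64 ± 0.29). FGF ligands differed in direction. Fgf7, a mesenchymal ligand, had 78.1 and 88.8 CPM in MEF and 3 reads in iPSC. Fgf17 and Fgf15 were at 0 counts in MEF and at 30.1 and 34.7 CPM and 12.3 and 12.7 CPM in iPSC, at least 287-fold and 111-fold higher. The receptors Fgfr1 and Fgfr2 were lower (log2 fold changes -1.82 ± 0.32 and -1.81 ± 0.37), and Spry4, a feedback inhibitor induced by FGF signalling, was higher at 13.3 and 12.7 CPM in MEF against 73.6 and 65.5 CPM in iPSC (log2 fold change 2.42 ± 0.17).

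Several genes of later or earlier developmental states were low in iPSC. As a whole, the list of primed epiblast and early lineage factors took 0.0236% and 0.0220% of gene counts in iPSC, against 0.0186% and 0.00807% in MEF. Of 24 tested factors of the primed epiblast and early lineages, 9 were higher and 1 lower (7 and 2 without MEF 2), and those named here stayed low in iPSC. Eomes had 0.0516 and 0 CPM in MEF against 9.58 and 8.70 CPM in iPSC, and Pax6 had 0.155 and 0 CPM in MEF against 12.5 and 11.1 CPM in iPSC. Sox21 had 0.103 and 0 CPM in MEF against 13.2 and 8.96 CPM in iPSC, and Sox3 was at 0 counts in MEF and 6.58 and 5.80 CPM in iPSC. The neural stem cell filament Nes was the list member that fell, with 116 and 42.4 CPM in MEF against 19.3 and 16.8 CPM in iPSC. Of 13 two-cell-stage genes found in the tables, 1 passed the count filter: Zscan4d had 0 counts in MEF against 0.645 and 0.527 CPM in iPSC and was not called by edgeR, DESeq2 or limma voom (edgeR adjusted p = 0.0732).

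The matrix genes of MEF fell by orders of magnitude. Of 30 collagen genes tested, 22 were lower and 3 higher, with a median log2 fold change of -7.54 (-7.27 at the bounds), and without MEF 2 the counts were 23 and 3. Col3a1, a fibrillar collagen, had 4415 and 1259 CPM in MEF against 0.129 and 0.593 CPM in iPSC (log2 fold change -13.08 ± 0.86, adjusted p = 4.83e-07). Col5a2, which seeds type I fibrils, had 5009 and 1104 CPM in MEF against 0.817 and 0.132 CPM in iPSC, and the fibril-associated Col12a1 had 2315 and 535 CPM in MEF against 0.301 and 0 CPM in iPSC. The basement membrane chains Col4a1 and Col4a2, transcribed from a shared promoter, moved alike: Col4a1 had 1058 and 127 CPM in MEF against 17.1 and 12.3 CPM in iPSC, and Col4a2 had 786 and 94.8 CPM in MEF against 11.0 and 9.29 CPM in iPSC (log2 fold changes -5.33 ± 0.79 and -5.44 ± 0.77). For each of these long transcripts MEF 1 was several times above MEF 2, and the iPSC values lay far below both. Col18a1, the endostatin precursor, was not called (231 and 39.2 CPM in MEF against 194 and 202 CPM in iPSC, adjusted p = 0.434) and was called higher without MEF 1 (log2 fold change 2.34). The 3 that rose were Col9a2 and Col9a3, chains of a cartilage collagen, and the transmembrane Col13a1: Col9a2 had 0.774 and 0 CPM in MEF against 14.3 and 18.6 CPM in iPSC, Col9a3 had 0.981 and 0.698 CPM in MEF against 3.22 and 5.40 CPM in iPSC, and Col13a1 had 0 counts in MEF against 2.62 and 3.36 CPM in iPSC. The Col13a1 call was lost without iPSC 1 and without iPSC 2, and the Col9a3 call without iPSC 2 (log2 fold change 1.90).

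Of 42 matrix glycoproteins and proteoglycans, 36 were lower and 3 higher (median -5.54, and 37 and 3 without MEF 2). Postn (periostin) had 1329 and 456 CPM in MEF against 0.0430 and 0.198 CPM in iPSC, and Thbs2 had 729 and 314 CPM in MEF against 0.0430 and 0.132 CPM in iPSC. Of the small proteoglycans that space collagen fibrils, Fmod had 64.7 and 38.3 CPM in MEF and 2 reads in iPSC, Lum had 33.4 and 41.3 CPM in MEF against 0 counts in iPSC, at least 479-fold lower, and Dcn had 17.5 and 11.7 CPM in MEF against 0 counts in iPSC, at least 187-fold lower. A pair of glycoproteins kept a substantial level in iPSC while falling. Fn1 (fibronectin) had 8861 and 1592 CPM in MEF against 551 and 550.4 CPM in iPSC (log2 fold change -3.25 ± 0.60), and Spp1 (osteopontin) had 2757 and 3075 CPM in MEF against 499 and 534 CPM in iPSC (log2 fold change -2.50 ± 0.46). Fbln1, Nid2, which belongs to basement membranes, and the cell-surface glypican Gpc3 were the 3 that rose. Nid2 had 141 and 29.3 CPM in MEF against 264 and 288 CPM in iPSC, and Gpc3 had 39.8 and 19.3 CPM in MEF against 128 and 132 CPM in iPSC (log2 fold changes 1.69 ± 0.52 and 2.12 ± 0.41). The Nid2 call was lost without iPSC 2 (log2 fold change 1.63).

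The enzymes that build and cut matrix fell with it. Of 38 proteases, inhibitors and cross-linking enzymes, 35 were lower and none was higher, with the same numbers without MEF 2. The 3 not called were Mmp9, Mmp10 and Mmp11, of which Mmp11 had 54.2 and 19.13 CPM in MEF against 48.0 and 46.9 CPM in iPSC and, like Mmp9, was called higher without MEF 1 (log2 fold change 1.31 for Mmp11). The membrane collagenase Mmp14 had 771 and 241 CPM in MEF against 25.2 and 22.7 CPM in iPSC (log2 fold change -4.40 ± 0.44), its substrate Mmp2 had 369 and 142 CPM in MEF against 11.4 and 11.1 CPM in iPSC, and the inhibitor Timp1 had 595 and 1322 CPM in MEF against 34.9 and 31.5 CPM in iPSC. Ctsk, a collagen-degrading cathepsin, had 62.9 and 69.8 CPM in MEF against 0 counts in iPSC, at least 850.5-fold lower. Plod2, a collagen lysyl hydroxylase, fell by less, with 257 and 184 CPM in MEF against 72.5 and 66.9 CPM in iPSC (log2 fold change -1.66 ± 0.23).

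The endoplasmic reticulum and lysosome machinery that serves secretion was lower as well, by less. Of 36 such genes, 33 were lower and 1 was higher, with a median of -1.72 (-1.71 at the bounds), and without MEF 2 the counts were 34 and 1. The collagen chaperones of the FKBP family fell most: Fkbp10 had 608 and 381 CPM in MEF against 22.99 and 17.3 CPM in iPSC (log2 fold change -4.62 ± 0.27), and Fkbp7 and Fkbp14 had log2 fold changes of -4.75 ± 0.33 and -5.24 ± 0.58. Creb3l1, a membrane-bound factor that turns on secretory genes, had 191 and 56.3 CPM in MEF against 6.79 and 5.01 CPM in iPSC, and the lysosomal protease Ctsd had 1100.3 and 871 CPM in MEF against 289 and 313 CPM in iPSC (log2 fold change -1.71 ± 0.18). Tfeb, a master regulator of lysosome genes, was the member that rose, with 8.05 and 4.05 CPM in MEF against 30.4 and 33.5 CPM in iPSC (log2 fold change 2.36 ± 0.36).

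All 39 tested fibroblast surface proteins and growth factor receptors were lower in iPSC, with a median at the bounds of -5.95, and all were lower without MEF 2 too. Cav1, the coat protein of caveolae, had 849.9 and 1304 CPM in MEF against 1.03 and 0.988 CPM in iPSC (log2 fold change -10.05 ± 0.36, adjusted p = 1.55e-08). Cdh11, the fibroblast cadherin, had 446 and 269 CPM in MEF against 0 and 0.264 CPM in iPSC, and Ly6a (SCA1) had 112 and 186 CPM in MEF against 0.0860 and 0.0659 CPM in iPSC. Ly6c1 had 13.9 and 17.6 CPM in MEF against 0 counts in iPSC, at least 202-fold lower. Nt5e (CD73), a surface marker used to sort the day 3 populations, was lower in iPSC than in MEF, with 33.3 and 26.4 CPM in MEF against 1.72 and 1.19 CPM in iPSC (log2 fold change -4.34 ± 0.38). No iPSC library overlapped a MEF library for any of the 39 genes, a pattern that 33.8% of all tested genes showed in this direction.

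Of 58 mesenchymal transcription factors, 50 were lower and 3 higher (median -4.79 (-4.66 at the bounds), and 52 and 3 without MEF 2). Prrx1, a limb mesenchyme homeobox factor, had 544 and 629.6 CPM in MEF against 0.0430 and 0.132 CPM in iPSC, and Osr1 had 57.3 and 28.6 CPM in MEF against 0 counts in iPSC, at least 551-fold lower. The drivers of epithelial-to-mesenchymal transition fell together. Snai1 had 68.5 and 48.0 CPM in MEF against 1.12 and 0.461 CPM in iPSC (log2 fold change -6.14 ± 0.53), and Snai2 had 64.8 and 75.7 CPM in MEF against 0.0430 and 0.659 CPM in iPSC. Twist1 had 65.0 and 38.0 CPM in MEF against 2.36 and 2.57 CPM in iPSC, and Zeb2 had 54.8 and 29.7 CPM in MEF against 3.01 and 2.37 CPM in iPSC (log2 fold change -3.97 ± 0.81). Runx2 of bone and Meox2, a mesoderm homeobox factor, were at 0 counts in iPSC, at least 399-fold and 96.0-fold lower. Of those that rose, Tead2 and Tead4 had log2 fold changes of 0.53 ± 0.20 and 2.05 ± 0.59, and the Tead2 call was lost without MEF 1, d3_Eff 2, d6_Eff 1, iPSC 1 or iPSC 2 (log2 fold changes 0.27, 0.53, 0.55, 0.55 and 0.52).

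Hox genes record position along the body axes, and the MEF held several of the most posterior and distal ones. Of 35 tested, 23 were lower in iPSC and none was higher by edgeR, DESeq2 or limma voom, with 2 higher at an unadjusted p under 0.05, and without MEF 2 the counts were the same numbers. Hoxa11 had 32.8 and 25.4 CPM in MEF against 0 counts in iPSC, and Hoxa13 had 28.6 and 30.3 CPM in MEF against 0 counts in iPSC, at least 373-fold and 378-fold lower. Hoxd12 had 22.2 and 12.4 CPM in MEF against 0 counts in iPSC, and Hoxc6 had 6.45 and 7.54 CPM in MEF against 0 counts in iPSC. Hoxa5, which is expressed further forward, kept 0.946 and 0.988 CPM in iPSC against 8.93 and 9.91 CPM in MEF (log2 fold change -3.28 ± 0.67). The other 12 tested Hox genes were not called.

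The contractile programme was lower in iPSC. Of 30 smooth muscle and actomyosin genes, 27 were lower and 1 was higher, with a median of -3.34, and without MEF 2 the counts were 28 and 1. Tagln (SM22) had 2553 and 5213 CPM in MEF against 64.6 and 29.8 CPM in iPSC (log2 fold change -6.36 ± 0.49), the thin-filament protein Cnn1 had 466 and 529.8 CPM in MEF against 7.99 and 5.27 CPM in iPSC (log2 fold change -6.22 ± 0.41), and Actg2, the visceral smooth muscle actin, had 271 and 365 CPM in MEF against 0.215 and 0.395 CPM in iPSC (log2 fold change -10.07 ± 0.32). Tpm1 and Tpm2, tropomyosins that coat actin filaments, had log2 fold changes of -4.39 ± 0.23 and -3.83 ± 0.20. In each case both MEF libraries lay at least several-fold above both iPSC libraries. Csrp2, a LIM protein, was the member that rose, with 129 and 186 CPM in MEF against 268 and 283 CPM in iPSC (log2 fold change 0.81 ± 0.19). The everyday actins fell by less: Actb had 5993 and 3876 CPM in MEF against 2509.8 and 2312 CPM in iPSC (log2 fold change -1.03 ± 0.24), and Actg1 had 1149 and 1442 CPM in MEF against 456 and 423 CPM in iPSC (log2 fold change -1.56 ± 0.19).

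Serum response factor binds the CArG box in contractile genes. The CArG box lay in 4 of 28 RefSeq windows of these genes (14.3%; windows were found for 25 of the 30 members) against 1.63% of all windows. The 4 windows belong to Cnn2, Myl6, Myl9 and Vcl, all called lower, and of the 21 members whose windows lack it 19 were lower. Cnn2 had 1280.1 and 1553 CPM in MEF against 171 and 157 CPM in iPSC, and Myl9, the regulatory light chain, had 519 and 403 CPM in MEF against 6.75 and 5.14 CPM in iPSC. Their windows are shown with the box in capitals, starting 56 bases before the start of Cnn2 and 161 before that of Myl9.
Cnn2 (GRCm38.p6 chr10:79988350-79988649, plus strand): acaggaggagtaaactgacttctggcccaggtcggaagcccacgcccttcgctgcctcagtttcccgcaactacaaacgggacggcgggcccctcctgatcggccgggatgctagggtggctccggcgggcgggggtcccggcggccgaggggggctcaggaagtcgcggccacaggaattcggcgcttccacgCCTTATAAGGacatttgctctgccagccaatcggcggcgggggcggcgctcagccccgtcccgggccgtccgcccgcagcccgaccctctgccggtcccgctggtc
Myl9 (GRCm38.p6 chr2:156775214-156775513, plus strand): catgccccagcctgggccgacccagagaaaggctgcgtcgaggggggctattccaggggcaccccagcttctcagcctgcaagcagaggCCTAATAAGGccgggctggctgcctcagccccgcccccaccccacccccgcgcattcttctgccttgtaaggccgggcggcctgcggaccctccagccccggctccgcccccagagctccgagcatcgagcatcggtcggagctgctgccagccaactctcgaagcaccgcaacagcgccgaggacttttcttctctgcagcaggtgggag
Both are plus-strand windows of 300 bases, read 5′ to 3′.

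Targets of TGF-beta and of the YAP and TAZ coactivators, which report stiffness and spreading, fell with the contractile genes. Of 26 tested, 20 were lower and 2 higher (median -3.50, and 23 and 1 without MEF 2). Ccn2 (CTGF) had 992 and 949 CPM in MEF against 17.3 and 14.6 CPM in iPSC (log2 fold change -5.93 ± 0.24, adjusted p = 2.79e-08), and Ccn1 (CYR61) had 850.4 and 361 CPM in MEF against 20.2 and 11.1 CPM in iPSC (log2 fold change -5.27 ± 0.46). Ankrd1, a further YAP target, had 72.0 and 56.0 CPM in MEF against 0.731 and 0.198 CPM in iPSC. Tgfb3, a ligand, had 474 and 179 CPM in MEF against 0.215 and 0.395 CPM in iPSC, and Inhba, the activin A subunit, had 132 and 83.5 CPM in MEF against 0.129 and 0 CPM in iPSC. Of the coactivators, Wwtr1 (TAZ) had 147 and 181 CPM in MEF against 49.9 and 50.4 CPM in iPSC (log2 fold change -1.71 ± 0.18). Yap1 had 245 and 174 CPM in MEF against 198 and 165 CPM in iPSC and was not called with all libraries (log2 fold change -0.21 ± 0.19, adjusted p = 0.383). It was called lower only without MEF 2 (log2 fold change -0.49). The difference between the 2 coactivators was not tested. The 2 that rose were the feedback inhibitors Smad7 and Skil. Smad7 had 53.02 and 35.2 CPM in MEF against 74.6 and 69.6 CPM in iPSC, and its call was lost without MEF 2, iPSC 1 or iPSC 2 (log2 fold changes 0.39, 0.65 and 0.75). Skil had 100.4 and 101 CPM in MEF against 200.3 and 189.6 CPM in iPSC (log2 fold change 0.95 ± 0.16).

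YAP and TAZ act through TEAD factors, whose site is searched for here as GGAATG on either strand. It lay in 10 of 23 windows (43.5%; 20 of the 26 members had a window) against 14.7% of all windows. Of the 9 members with the site, 7 were lower and 2 were not called, and of the 11 members without it 9 were lower. The windows of Ccn1 and Ankrd1 are shown because both genes are widely used as YAP reporters, with the site in capitals. It starts 103 bases before the start of Ccn1, and 210 and 123 bases before that of Ankrd1.
Ccn1 (GRCm38.p6 chr3:145649936-145650235, minus strand): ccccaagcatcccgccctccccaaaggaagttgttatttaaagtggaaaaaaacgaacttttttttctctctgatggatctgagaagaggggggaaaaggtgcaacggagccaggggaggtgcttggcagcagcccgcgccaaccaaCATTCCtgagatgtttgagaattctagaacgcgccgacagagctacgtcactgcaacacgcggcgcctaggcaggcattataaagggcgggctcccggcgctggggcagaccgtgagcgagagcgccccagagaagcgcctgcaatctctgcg
Ankrd1 (GRCm38.p6 chr19:36119795-36120094, minus strand): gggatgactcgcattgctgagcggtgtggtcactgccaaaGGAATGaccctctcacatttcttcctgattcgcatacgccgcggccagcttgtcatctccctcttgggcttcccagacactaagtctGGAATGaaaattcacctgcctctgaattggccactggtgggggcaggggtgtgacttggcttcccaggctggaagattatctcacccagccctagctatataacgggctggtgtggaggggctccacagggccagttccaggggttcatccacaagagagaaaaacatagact
Both are minus-strand genes, read here 5′ to 3′ along the gene.

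The AP-1 and immediate early factors did not share a direction, with 5 of 21 higher and 8 lower (4 and 11 without MEF 2). The share of higher genes was not above the background of 26.0%. Jun had 154 and 72.2 CPM in MEF against 9.54 and 5.80 CPM in iPSC (log2 fold change -3.88 ± 0.40), Fosl2 had 265 and 172 CPM in MEF against 8.72 and 8.76 CPM in iPSC (log2 fold change -4.65 ± 0.26), and Egr1 had 130.1 and 33.6 CPM in MEF against 8.42 and 7.97 CPM in iPSC (log2 fold change -3.33 ± 0.54). Fos was at 16.2 and 8.24 CPM in MEF against 17.4 and 12.8 CPM in iPSC and not called (adjusted p = 0.552). Of the 5 that rose Klf9 had the largest fold change, with 52.96 and 46.2 CPM in MEF against 209.7 and 217 CPM in iPSC (log2 fold change 2.10 ± 0.17). These genes also respond to trypsin and sorting, which both groups went through, and the part of handling in their levels was not tested.

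Epithelial genes appeared. Of 43 junction and polarity genes, 29 were higher and 4 lower, with a median of 3.97, and without MEF 2 the counts were 28 and 5. Cdh1 (E-cadherin) had 1 read in MEF and 410.3 and 426 CPM in iPSC, a ratio of 11054-fold (exact 95% counting interval 1984 to 436641). The claudins of tight junctions followed: Cldn4 had 0.671 and 0 CPM in MEF against 168 and 203 CPM in iPSC, Cldn6 had 69.8 and 77.5 CPM in iPSC against 1 read in MEF, and Cldn7 had 49.4 and 53.7 CPM in iPSC against 2 reads. Tjp3 and Crb3, of the tight junction plaque and the apical polarity complex, had no MEF reads and were higher by at least 311-fold and 216-fold. Dsp, of desmosomes, had 1.39 and 0 CPM in MEF against 15.0 and 17.4 CPM in iPSC (log2 fold change 4.13 ± 0.64). The 4 that fell included 2 gap junction proteins, Gjb2 with 117 and 135 CPM in MEF against 0.473 and 0.791 CPM in iPSC, and Gja1 with 493 and 377 CPM in MEF against 81.4 and 63.9 CPM in iPSC (log2 fold changes -7.67 ± 0.52 and -2.58 ± 0.26), the plakophilin Pkp1, and the sorting adaptor Ap1m1.

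Of 18 epithelial regulators and keratins, 12 were higher and 3 lower (11 and 3 without MEF 2). The grainyhead factor Grhl2 had 0.103 and 0 CPM in MEF against 18.1 and 20.4 CPM in iPSC, and its relatives Grhl1 and Grhl3 had no MEF reads and were higher by at least 85.9-fold and 298-fold. The splicing factor Esrp1 had 1 read in MEF and 45.6 and 40.7 CPM in iPSC. In the keratin pair of simple epithelia, Krt8 had 0.516 and 0.977 CPM in MEF against 43.0 and 26.5 CPM in iPSC, and Krt18 had 7.49 and 11.0 CPM in MEF against 43.3 and 29.1 CPM in iPSC (log2 fold changes 5.69 ± 0.43 and 1.99 ± 0.30). The ETS factor Elf3 had 3 reads in MEF and 147 and 164 CPM in iPSC. Krt7, Krt19 and Krt80 fell, and the Krt19 call was lost without MEF 2 or iPSC 2 (log2 fold changes -0.80 and -0.73). Keratins have many processed copies, so their counts are uncertain.

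Cell cycle genes were higher in iPSC. Of 45 replication and G1/S genes, 40 were higher and 1 was lower, with a median of 2.12, and without MEF 2 the counts were 41 and 0. Pcna, the sliding clamp, had 77.6 and 109.6 CPM in MEF against 387 and 385 CPM in iPSC (log2 fold change 2.05 ± 0.20), and Ccne1 (cyclin E1) had 48.0 and 61.4 CPM in MEF against 234 and 239.8 CPM in iPSC (log2 fold change 2.12 ± 0.18). Cdt1, which loads the helicase at origins, had 23.2 and 14.1 CPM in MEF against 252 and 252 CPM in iPSC, and Mcm10, which helps them fire, had 14.9 and 5.86 CPM in MEF against 149 and 133 CPM in iPSC. Ung, which removes uracil from DNA, had the largest fold change of the list, with 8.00 and 7.12 CPM in MEF against 140.0 and 158 CPM in iPSC (log2 fold change 4.29 ± 0.20). Ccne2 was lower with 14.7 and 35.5 CPM in MEF against 12.3 and 8.70 CPM in iPSC, and that call was lost without MEF 2 or iPSC 2 (log2 fold changes -0.53 and -1.01). Gins3, Rfc3, Tk1 and Asf1b were not called, and without MEF 2 Rfc3 and Tk1 were called higher (log2 fold changes 0.92 and 0.45).

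Of 36 mitotic genes, 32 were higher and none was lower (32 and 1 without MEF 2). Ccnb1 (cyclin B1) had 50.4 and 49.0 CPM in MEF against 323 and 285 CPM in iPSC (log2 fold change 2.61 ± 0.18), and Cdk1 had 105 and 138 CPM in MEF against 347 and 329 CPM in iPSC (log2 fold change 1.47 ± 0.18). Top2a, the decatenating topoisomerase, had 212 and 80.6 CPM in MEF against 927 and 826 CPM in iPSC. Mki67 (Ki-67), the usual proliferation marker, had 90.6 and 10.9 CPM in MEF against 51.0 and 34.7 CPM in iPSC and was not called with all libraries (adjusted p = 0.761), but was called lower without MEF 2 (log2 fold change -1.13) and higher without MEF 1 (1.98). Cenpe, also not called at 54.5 and 9.91 CPM in MEF against 52.3 and 38.3 CPM in iPSC, was called higher without MEF 1 (log2 fold change 2.19). Both are long transcripts, and both were several-fold lower in MEF 2 than in MEF 1.

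Several brakes on the cell cycle were lower. Cdkn2a, which encodes p16 and ARF, had 173 and 185 CPM in MEF against 16.8 and 17.0 CPM in iPSC (log2 fold change -3.40 ± 0.24, adjusted p = 8.96e-07), and its neighbour Cdkn2b (p15) had 179 and 220.4 CPM in MEF against 4.08 and 1.65 CPM in iPSC (log2 fold change -6.08 ± 0.37). Cdkn1a (p21), a p53 target, had 499 and 495 CPM in MEF against 65.3 and 68.4 CPM in iPSC (log2 fold change -2.89 ± 0.17), and Cdkn2c (p18) had 25.0 and 28.8 CPM in MEF against 0.903 and 1.58 CPM in iPSC. None of these MEF and iPSC values overlapped, a pattern that 33.8% of all tested genes showed in this direction. Over the list of CDK inhibitors, D cyclins and p53 pathway genes, 16 of 36 were lower and 9 higher (19 and 9 without MEF 2). The share of higher genes in this list was not above the background of 26.0%. Rbl1 (p107), a pocket protein that restrains the cycle, was among those higher (25.2 and 18.6 CPM in MEF against 32.2 and 31.7 CPM in iPSC, adjusted p = 0.0491), a call lost on leaving out any 1 library other than MEF 1 (log2 fold changes from 0.29 without MEF 2 to 0.55 without iPSC 2). Trp53 itself (p53) was higher, with 190.0 and 140.4 CPM in MEF against 495 and 497 CPM in iPSC (log2 fold change 1.59 ± 0.19). Its targets went both ways. Perp, Gadd45a and Pmaip1 rose, Perp with 4.28 and 10.1 CPM in MEF against 54.4 and 40.7 CPM in iPSC, whereas Cdkn1a and Fas fell. Of the D cyclins, Ccnd2 had 929.6 and 780.4 CPM in MEF against 27.2 and 27.0 CPM in iPSC (log2 fold change -4.98 ± 0.23), and Ccnd3 was higher (log2 fold change 0.69 ± 0.15).

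Ribosome biogenesis genes were higher, 31 of 38 with none lower and a median of 1.32 (35 and none lower without MEF 2). Dkc1, the pseudouridine synthase of small nucleolar particles, had 73.6 and 62.0 CPM in MEF against 364 and 381 CPM in iPSC (log2 fold change 2.46 ± 0.19). Nolc1, a nucleolar phosphoprotein, had 77.7 and 18.99 CPM in MEF against 256 and 225 CPM in iPSC, and Gnl3 (nucleostemin) had 81.5 and 61.0 CPM in MEF against 272 and 259 CPM in iPSC. Polr1b, a subunit of RNA polymerase I, had 36.1 and 16.9 CPM in MEF against 122 and 122 CPM in iPSC (log2 fold change 2.19 ± 0.29). Ribosomal protein genes summed to 4.42% and 9.45% of gene counts in MEF 1 and 2, and to 10.1% and 10.9% in iPSC. MEF 2 thus lay nearer to iPSC than to MEF 1. In the libraries sorted on days 3 and 6 they summed to 7.45% to 11.0%, so MEF 1 lay below every other library. These are short transcripts, and the MEF libraries differ by transcript length. The part of that difference in these shares was not tested.

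In glycolysis and glucose uptake, 19 of 34 genes were higher and 2 lower (19 and 6 without MEF 2). The high-affinity transporter Slc2a3 (GLUT3) had 18.2 and 22.3 CPM in MEF against 1879 and 1952 CPM in iPSC (log2 fold change 6.57 ± 0.25, adjusted p = 2.36e-08), and Slc2a1 (GLUT1) had 300.1 and 255 CPM in MEF against 1245 and 1394 CPM in iPSC (log2 fold change 2.25 ± 0.17). In CPM per kilobase of exon, Slc2a3 had 2.51 and 3.08 in MEF against 259 and 269 in iPSC, and Slc2a1 had 85.6 and 72.8 in MEF against 355 and 398 in iPSC. GLUT3 went from a small fraction of GLUT1 in MEF to the same order in iPSC. Ldhb, the lactate dehydrogenase subunit that favours lactate oxidation, had 28.6 and 44.7 CPM in MEF against 533 and 592 CPM in iPSC (log2 fold change 3.95 ± 0.25). The lactate exporter Slc16a3 (MCT4) was lower with 374 and 289 CPM in MEF against 159 and 185 CPM in iPSC, a call lost without iPSC 1 (log2 fold change -0.84), and Eno3, the muscle enolase, was lower as well.

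The calls for oxidative phosphorylation depended on MEF 2. With all libraries 8 of 44 nuclear-encoded subunits were higher and none was lower, with a median of 0.12, a share not above the background of 26.0%. Without MEF 2, 28 were higher and the median was 0.71. Atp5a1 and Atp5b, which form the catalytic head of ATP synthase, were called either way. Atp5a1 had 943 and 1349 CPM in MEF against 2352 and 2445 CPM in iPSC, and Atp5b had 1382 and 1679 CPM in MEF against 2798 and 2933 CPM in iPSC (log2 fold changes 1.07 ± 0.21 and 0.90 ± 0.19). Cox7a1, a subunit typical of muscle, had 1.34 and 4.05 CPM in MEF against 31.3 and 36.3 CPM in iPSC (log2 fold change 3.75 ± 0.61). Cox6c, chosen after its values were seen, had 136 and 400.3 CPM in MEF against 231 and 239 CPM in iPSC, so the iPSC libraries lay between the 2 MEF libraries, and it was called higher without MEF 2 (log2 fold change 0.74) and lower without MEF 1 (-0.77).

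Serine and one-carbon metabolism was mixed, with 14 of 29 higher and 4 lower (14 and 7 without MEF 2). The glycine cleavage system was among those that rose, Gldc with 0.103 and 3.07 CPM in MEF against 165 and 172 CPM in iPSC, and Amt with 1.29 and 0.838 CPM in MEF against 77.4 and 69.9 CPM in iPSC (log2 fold changes 7.18 ± 0.81 and 6.02 ± 0.46). Shmt1, the cytosolic serine hydroxymethyltransferase, had 14.4 and 14.9 CPM in MEF against 193 and 181 CPM in iPSC. Phgdh, which commits carbon to serine synthesis, was lower at 331 and 397 CPM in MEF against 205 and 227 CPM in iPSC (log2 fold change -0.75 ± 0.20, a call lost without iPSC 1 at -0.68), and the mitochondrial folate enzymes Aldh1l2 and Mthfd2l fell, Aldh1l2 with 201 and 101 CPM in MEF against 4.81 and 5.86 CPM in iPSC (log2 fold change -4.82 ± 0.52). Of 27 cholesterol and fatty acid synthesis genes, 11 were lower and 3 higher (14 and 2 without MEF 2). The desaturase Fads1 had 345 and 339.7 CPM in MEF against 60.2 and 60.2 CPM in iPSC (log2 fold change -2.51 ± 0.21). The medium differs between the groups, and its part in the metabolic genes cannot be told apart.

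Hypoxia and NRF2 targets had no common direction, with 9 of 28 higher and 10 lower, the same numbers as without MEF 2. Over all genes tested, 26.0% were higher and 26.7% lower. Gsta4, a glutathione transferase that clears lipid aldehydes, had 4.13 and 4.75 CPM in MEF against 748 and 827 CPM in iPSC (log2 fold change 7.48 ± 0.30, adjusted p = 2.89e-08). The NRF2 targets Hmox1, Gclc, Gclm, Txnrd1 and Gstm1 rose too, and Epas1, Egln3 and Ddit4 completed the 9. Slc7a11, the cystine importer and also an NRF2 target, fell with 19.3 and 29.9 CPM in MEF against 1.68 and 1.32 CPM in iPSC. Sod3, extracellular superoxide dismutase, had 49.5 and 25.3 CPM in MEF against 0 counts in iPSC, at least 479-fold lower.

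Among DNA methylation enzymes and readers, 13 of 21 were higher and 5 lower (12 and 5 without MEF 2). Dnmt3l, the catalytically inactive partner of the de novo methyltransferases, had 275 and 254 CPM in iPSC against 3 reads in MEF, a ratio of 2359-fold (exact 95% counting interval 807 to 11440.1). Dnmt3b had 2.37 and 0.279 CPM in MEF against 102 and 77.7 CPM in iPSC (log2 fold change 5.81 ± 0.53). Of the pair that maintains methylation at the replication fork, Dnmt1 had 92.5 and 13.7 CPM in MEF against 218 and 199.8 CPM in iPSC, and Uhrf1 had 66.5 and 37.1 CPM in MEF against 336 and 319.8 CPM in iPSC. The TET enzymes, which oxidise methylcytosine, differed in direction. In CPM per kilobase, Tet1 had 0.227 and 0.199 in MEF against 22.8 and 21.5 in iPSC, Tet2 had 0.557 and 0.149 in MEF against 2.57 and 2.53 in iPSC, and Tet3 had 2.46 and 0.468 in MEF against 0.528 and 0.363 in iPSC. Tet3 was the highest of the 3 in both MEF libraries and Tet1 in both iPSC libraries. Of the readers, Mbd3 was not called (129 and 127 CPM in MEF against 165 and 164 CPM in iPSC, adjusted p = 0.107), Mbd4 rose, Mbd2 had 71.2 and 69.1 CPM in MEF against 13.1 and 14.3 CPM in iPSC (log2 fold change -2.36 ± 0.18) and fell, and Mbd1 and Zbtb33 had log2 fold changes of -1.27 ± 0.27 and -1.57 ± 0.30. The Tet3 call was lost without MEF 1 or iPSC 2 (log2 fold changes -0.06 and -1.50), and the Dnmt1 call without iPSC 1 (1.89).

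Transcripts of Polycomb subunits moved in both directions. Over Polycomb, trithorax and histone modifiers, 29 of 54 were higher and 9 lower (28 and 11 without MEF 2). In Polycomb repressive complex 2, the methyltransferase Ezh2 had 42.6 and 39.8 CPM in MEF against 263 and 245 CPM in iPSC (log2 fold change 2.62 ± 0.18), and accessory subunits rose too. Jarid2 had 15.5 and 6.28 CPM in MEF against 312 and 309 CPM in iPSC (log2 fold change 4.78 ± 0.37), Mtf2 had 23.3 and 30.6 CPM in MEF against 299.6 and 279.6 CPM in iPSC, and Epop had 8.83 and 7.68 CPM in MEF against 342 and 356 CPM in iPSC (log2 fold change 5.39 ± 0.29). In Polycomb repressive complex 1, subunits of 1 family moved in opposite directions. Of the CBX readers, in CPM per kilobase, Cbx7 had 0.263 and 0.366 in MEF against 19.7 and 18.1 in iPSC, whereas Cbx6, the highest in MEF of the 4 CBX genes plotted, had 12.2 and 7.76 in MEF against 6.83 and 5.84 in iPSC. Cbx8 was lower (log2 fold change -1.87 ± 0.40). Of the PHC subunits, in CPM per kilobase, Phc1 had 4.87 and 2.48 in MEF against 70.5 and 63.7 in iPSC, and Phc2 had 30.8 and 27.6 in MEF against 4.18 and 4.50 in iPSC. Of the PCGF subunits, Bmi1, a repressor of Cdkn2a in fibroblasts, had 64.9 and 99.5 CPM in MEF against 9.46 and 8.83 CPM in iPSC (log2 fold change -3.16 ± 0.26), and Pcgf6 of the germline-repressing variant complex had 14.1 and 16.3 CPM in MEF against 87.1 and 83.3 CPM in iPSC (log2 fold change 2.49 ± 0.21). Cbx7 passed Cbx6, and Phc1 passed Phc2, in both iPSC libraries, and MEF and iPSC libraries did not overlap for any of the 4. Of all tested genes, 39.1% did not overlap and were higher in iPSC, and 33.8% did not overlap and were lower. The Cbx6 call was lost without MEF 1, iPSC 1 or iPSC 2 (log2 fold changes -0.29, -0.77 and -0.55).

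Subunits of the BAF remodelling complex also moved in opposite directions. Over remodellers and histone chaperones, 25 of 43 were higher and 5 lower (22 and 9 without MEF 2). Embryonic stem cells are known for a BAF complex built on the ATPase BRG1 (Smarca4) without BRM (Smarca2), and with 1 kind of SMARCC subunit. Smarca2 had 33.5 and 22.9 CPM in MEF against 0.473 and 0.0659 CPM in iPSC (log2 fold change -6.51 ± 0.42), while Smarca4 was not called (223 and 48.2 CPM in MEF against 202 and 199.6 CPM in iPSC, adjusted p = 0.355). Smarcc1 (BAF155) had 170.1 and 71.3 CPM in MEF against 311 and 299 CPM in iPSC, and Smarcc2 (BAF170) had 100.2 and 26.1 CPM in MEF against 9.50 and 8.89 CPM in iPSC (log2 fold changes 1.33 ± 0.31 and -2.79 ± 0.50). Smarcd1 had 34.5 and 13.4 CPM in MEF against 195 and 195 CPM in iPSC, and Smarcd3 had 14.5 and 5.58 CPM in MEF against 3.31 and 4.94 CPM in iPSC (log2 fold changes 3.00 ± 0.34 and -1.30 ± 0.49). For Smarcd3 the MEF 2 value was close to those of iPSC, and the call was lost on leaving out any 1 library other than MEF 2 or d3_Eff 2 (log2 fold changes from -0.44 without MEF 1 to -1.61 without iPSC 2). Without MEF 1, Smarca4 was called higher (2.06). Of the CHD remodellers, Chd7 had 3.10 and 0.558 CPM in MEF against 69.7 and 67.2 CPM in iPSC, and Chd3 had 215 and 22.3 CPM in MEF against 8.42 and 5.01 CPM in iPSC. Of the high mobility group proteins, Hmgb2 had 39.1 and 49.0 CPM in MEF against 539 and 581 CPM in iPSC, and Hmga2 had 365 and 271 CPM in MEF against 6.02 and 1.78 CPM in iPSC (log2 fold changes 3.67 ± 0.20 and -6.31 ± 0.46). H2afx, the histone variant phosphorylated at DNA breaks, had 88.9 and 118 CPM in MEF against 978 and 1003 CPM in iPSC (log2 fold change 3.26 ± 0.21).

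**Figure D4:**
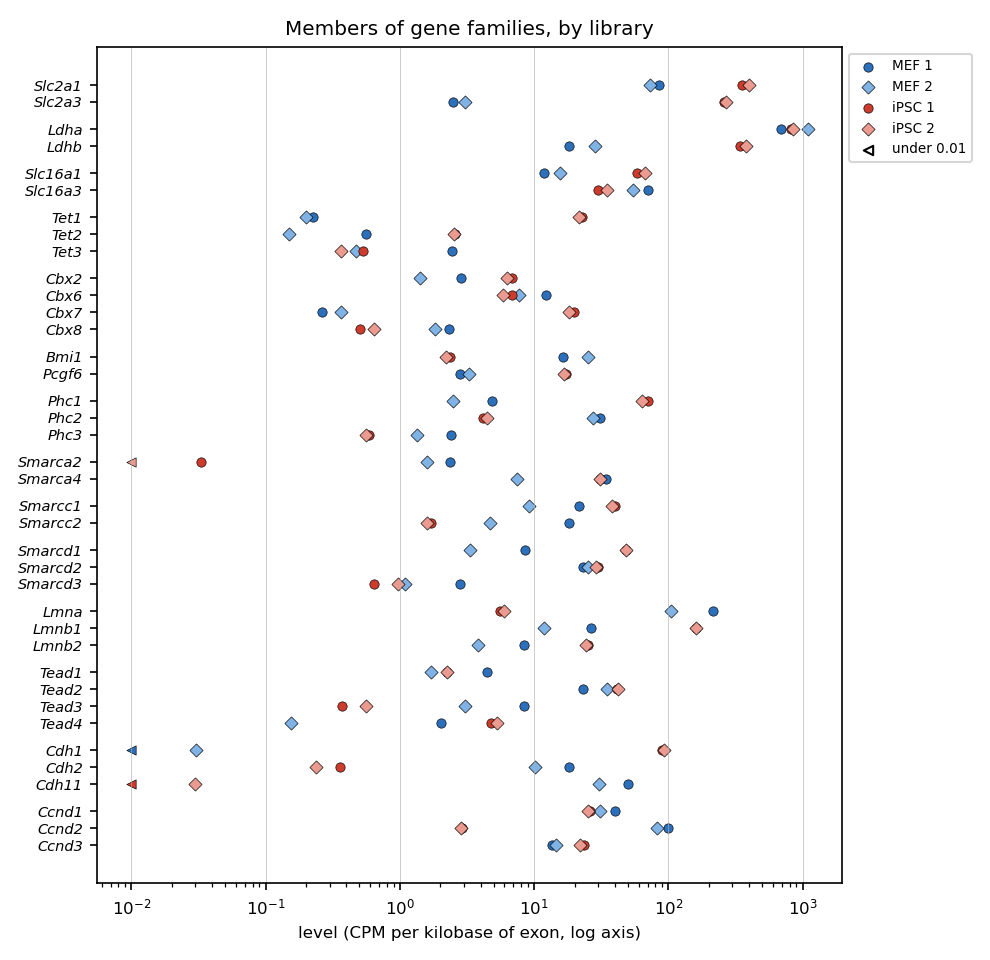
Level per kilobase of exon (CPM per kilobase, log axis) in each library for the members of gene families, chosen after their values were seen. Blue symbols are MEF, red symbols iPSC; circles are replicate 1, diamonds replicate 2, and left-pointing triangles are values under 0.01. Cbx7, Phc1, Smarcd1, Lmnb1 and Cdh1 lie to the right in iPSC, and Phc2, Smarca2, Smarcc2, Lmna and Cdh11 to the left.

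Lamin transcripts moved in both directions. Lmna, the A-type lamin that scales with tissue stiffness, had 1245 and 612 CPM in MEF against 32.3 and 34.6 CPM in iPSC (log2 fold change -4.80 ± 0.33, adjusted p = 6.70e-07), and Lmnb1 had 78.5 and 35.3 CPM in MEF against 478 and 475 CPM in iPSC (log2 fold change 3.06 ± 0.32). In CPM per kilobase, Lmna had 213 and 105 in MEF against 5.54 and 5.93 in iPSC, and Lmnb1 had 26.5 and 11.9 in MEF against 162 and 160.4 in iPSC, so the order of the 2 lamins was inverted. Sun2, which links the lamina to the cytoskeleton, fell with Lmna (125 and 50.8 CPM in MEF against 8.42 and 10.9 CPM in iPSC). Over nuclear envelope and cytoskeletal genes, 12 of 29 were higher and 11 lower (12 and 12 without MEF 2). The actin-severing protein Gsn had 1230.1 and 824 CPM in MEF against 12.7 and 10.1 CPM in iPSC (log2 fold change -6.48 ± 0.30).

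Germline genes were higher. Of 37 tested genes of germ cells, piRNA biogenesis and meiosis, 28 were higher and none was lower by edgeR (1 by DESeq2 and at an unadjusted p under 0.05, none by limma voom), with a median of 5.39 (5.06 at the bounds). Without MEF 2, 26 were higher. Levels were modest. Tdrd12, of the piRNA pathway, had 76.9 and 70.7 CPM in iPSC against 1 read in MEF, and Stag3, a meiotic cohesin, had 0.413 and 0.698 CPM in MEF against 48.1 and 44.6 CPM in iPSC. Sycp3, of the synaptonemal complex, had 0.310 and 0 CPM in MEF against 18.9 and 19.11 CPM in iPSC, and its partner Hormad1 had 0 counts in MEF against 14.6 and 15.3 CPM in iPSC, at least 132-fold higher. Mael, a piRNA factor, had 0 counts in MEF against 13.0 and 14.7 CPM in iPSC, and the RNA-binding Dazl had 0 and 1.12 CPM in MEF against 16.2 and 12.5 CPM in iPSC (log2 fold change 5.06 ± 1.41). The Dazl call was lost without iPSC 1 or iPSC 2 (log2 fold changes 4.70 and 5.14).

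Germline promoters are bound in stem cells by a variant Polycomb complex through the E-box CACGTG. The E-box, which is its own reverse complement, lay in 16 of 47 windows (34.0%; 38 of the 43 members had a window) against 7.15% of all windows. Of the 14 members with it, 9 were higher, 4 were not called and 1 was not tested. Of the 24 members without it, 15 were higher, 4 were not called and 5 were not tested. The windows of Sycp3, Hormad1 and Syce2 are shown with the E-box in capitals as examples of the 9 that were higher, chosen after their values were seen. The windows of Slc25a31, Brdt, Tdrd1 and Taf9b, which were not called, also hold it within 100 bases before a start. It starts 64 and 43 bases before the start of Sycp3, 57 and 20 bases before that of Hormad1, and 88 bases before that of Syce2.
Sycp3 (GRCm38.p6 chr10:88459337-88459636, plus strand): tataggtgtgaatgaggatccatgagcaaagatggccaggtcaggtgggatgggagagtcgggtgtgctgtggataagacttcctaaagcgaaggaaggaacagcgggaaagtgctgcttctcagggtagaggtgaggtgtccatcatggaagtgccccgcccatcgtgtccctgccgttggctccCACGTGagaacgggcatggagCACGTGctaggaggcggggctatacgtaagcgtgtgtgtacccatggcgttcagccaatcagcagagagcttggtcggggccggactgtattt
Hormad1 (GRCm38.p6 chr3:95559427-95559726, plus strand): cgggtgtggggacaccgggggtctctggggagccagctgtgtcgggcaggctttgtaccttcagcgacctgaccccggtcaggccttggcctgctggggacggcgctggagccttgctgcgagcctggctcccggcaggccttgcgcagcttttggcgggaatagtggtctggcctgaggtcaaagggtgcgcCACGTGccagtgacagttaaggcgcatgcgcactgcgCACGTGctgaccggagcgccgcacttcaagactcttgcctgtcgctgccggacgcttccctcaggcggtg
Syce2 (GRCm38.p6 chr8:84872008-84872307, plus strand): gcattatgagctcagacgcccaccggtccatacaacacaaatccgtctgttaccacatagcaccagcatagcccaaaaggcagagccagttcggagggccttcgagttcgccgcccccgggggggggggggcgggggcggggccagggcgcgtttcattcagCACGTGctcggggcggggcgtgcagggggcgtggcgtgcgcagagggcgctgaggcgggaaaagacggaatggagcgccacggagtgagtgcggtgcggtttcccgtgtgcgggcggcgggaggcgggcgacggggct
Syce2, a central element of the synaptonemal complex, had 6.04 and 10.5 CPM in MEF against 130.0 and 145 CPM in iPSC (log2 fold change 4.09 ± 0.31) and was the one of the 3 with clear expression in MEF.

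Of 31 imprinted genes, 13 were lower and 5 higher, with a median of -0.84, and without MEF 2 the counts were 14 and 5. The neighbours H19 and Igf2, which are expressed from opposite parental alleles, both fell, H19 with 1695 and 1072 CPM in MEF against 28.8 and 23.2 CPM in iPSC, and Igf2 with 389 and 213 CPM in MEF against 9.20 and 5.34 CPM in iPSC (log2 fold changes -5.73 ± 0.34 and -5.36 ± 0.38). Of the Dlk1-Dio3 cluster, Meg3 had 33.9 and 9.91 CPM in MEF against 2.19 and 0.988 CPM in iPSC, and Dlk1 had 12.5 and 2.79 CPM in MEF against 1.76 and 2.24 CPM in iPSC (log2 fold changes -3.76 ± 0.61 and -1.96 ± 0.75), and the Dlk1 call was lost on leaving out any 1 library other than MEF 2, d6_Ineff 1, d6_Ineff 2 or d6_Eff 2 (from -0.48 without MEF 1 to -2.13 without iPSC 2). Of the placental genes, Peg10 rose with 29.9 and 12.3 CPM in MEF against 169.8 and 122 CPM in iPSC, and Phlda2 rose with 0.155 and 0 CPM in MEF against 87.9 and 89.6 CPM in iPSC. Peg3, Nnat and Ascl2 were the other imprinted genes that rose. The counts do not separate alleles. Xist, the RNA of the inactive X chromosome, had 40.3 and 17.6 CPM in MEF against 4.64 and 2.50 CPM in iPSC (log2 fold change -3.01 ± 0.41), and its antisense partner Tsix had 0 counts in MEF against 1.12 and 2.17 CPM in iPSC, a call lost without any 1 of the 4 libraries. The strand setting of the counting is not given, so the counts of these 2 genes are uncertain where the genes overlap.

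Innate immune and secreted inflammatory genes were lower. Of 37 interferon response and antigen presentation genes, 20 were lower and 3 higher (18 and 3 without MEF 2). B2m, the light chain of MHC class I, had 437 and 615 CPM in MEF against 14.4 and 18.0 CPM in iPSC (log2 fold change -5.02 ± 0.32, adjusted p = 4.24e-07), and the non-classical heavy chain H2-T23 had 7.95 and 7.82 CPM in MEF against 0 counts in iPSC. Ifitm3 had 328 and 463 CPM in MEF against 107 and 104 CPM in iPSC, and Ifitm1 had 7.85 and 12.8 CPM in MEF against 184 and 164 CPM in iPSC, so these 2 membrane proteins that restrict virus entry went in opposite directions (log2 fold changes -1.91 ± 0.22 and 4.10 ± 0.27). Bst2 and Irf1 were the other members that rose, and the Irf1 call was lost without MEF 2 or iPSC 1 (log2 fold changes 0.69 and 0.49). Of 36 chemokines and secreted factors, 24 were lower and none was higher, with and without MEF 2. Ccl2 had 65.7 and 111 CPM in MEF against 0.301 and 0.0659 CPM in iPSC, and Cxcl12 had 334 and 314 CPM in MEF against 7.86 and 5.93 CPM in iPSC (log2 fold change -5.55 ± 0.42). Ptgs2 (COX-2), which makes prostaglandins, had 509 and 352 CPM in MEF against 0.258 and 0 CPM in iPSC, and Il1rl1, the IL-33 receptor, had 679 and 879.7 CPM in MEF against 0.0860 and 0.0659 CPM in iPSC. Lif, the cytokine used to culture stem cells, fell from 22.5 and 11.3 to 4.00 and 2.37 CPM.

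Wnt components moved in both directions, with a share of higher genes not above the background of 26.0%. Of 34 genes, 14 were lower and 8 higher (15 and 8 without MEF 2). Several ligands, agonists and antagonists fell: the ligand Wnt5a had 93.4 and 78.5 CPM in MEF against 1.50 and 2.90 CPM in iPSC, the agonist Rspo3 had 38.0 and 36.3 CPM in MEF against 0.387 and 0 CPM in iPSC, and of the Dickkopf family Dkk3 had 392 and 239.8 CPM in MEF against 8.29 and 6.85 CPM in iPSC, and Dkk2 had 92.0 and 65.9 CPM in MEF against 0.0860 and 0 CPM in iPSC. The antagonist Sfrp1 had 37.5 and 17.5 CPM in MEF against 107 and 114 CPM in iPSC and the ligand Wnt7b 0.878 and 1.40 CPM in MEF against 8.29 and 7.45 CPM in iPSC, and both rose (log2 fold changes 1.99 ± 0.31 and 2.83 ± 0.69). Nuclear factors rose too: Lef1 had 1.60 and 0.140 CPM in MEF against 35.2 and 36.2 CPM in iPSC, Tcf7 had 7.74 and 3.77 CPM in MEF against 91.3 and 74.2 CPM in iPSC, and the repressor Tcf7l1 had 35.7 and 12.8 CPM in MEF against 64.9 and 56.3 CPM in iPSC (log2 fold changes 5.08 ± 0.59, 3.80 ± 0.50 and 1.29 ± 0.37). The Tcf7l1 call was lost without iPSC 1 (log2 fold change 1.19). Notum, a secreted Wnt inhibitor, had 0 counts in MEF against 9.24 and 8.70 CPM in iPSC, and the target Axin2 was not called (1.39 and 3.91 CPM in MEF against 4.47 and 5.21 CPM in iPSC, adjusted p = 0.609). In the IGF axis the binding proteins Igfbp7, Igfbp6 and Igfbp5 fell, with log2 fold changes of -9.13 ± 0.39, -7.18 ± 0.46 and -7.56 ± 1.02, while Igfbp2 rose from 169.7 and 102 to 959.9 and 1099.6 CPM. Of the 16 genes, 9 were lower and 3 higher (12 and 3 without MEF 2).

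DNA repair genes were higher. Of 44 repair, telomere and apoptosis genes, 31 were higher and 6 lower (28 and 7 without MEF 2). Msh6, which recognises DNA mismatches, had 48.9 and 28.5 CPM in MEF against 810.0 and 814 CPM in iPSC (log2 fold change 4.38 ± 0.26). Parp1, which senses DNA breaks, had 75.4 and 30.9 CPM in MEF against 716 and 693 CPM in iPSC (log2 fold change 3.72 ± 0.35). The shelterin protein Terf1 had 14.2 and 17.7 CPM in MEF against 97.0 and 92.2 CPM in iPSC (log2 fold change 2.58 ± 0.25). Tert, the telomerase reverse transcriptase, was at 3.56 and 0.838 CPM in MEF against 6.02 and 9.82 CPM in iPSC, and its call was lost without MEF 2 or iPSC 2 (log2 fold changes 1.09 and 1.36). The 6 that fell act in the control of cell death: Casp8, the initiator caspase of death receptors, had 56.3 and 63.9 CPM in MEF against 0.946 and 1.05 CPM in iPSC (log2 fold change -5.91 ± 0.32), and Bcl2 had 8.31 and 5.03 CPM in MEF against 1.07 and 1.12 CPM in iPSC.

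Splicing regulators moved in both directions. Of the muscleblind proteins, which favour splice forms of differentiated cells, Mbnl1 had 172 and 216 CPM in MEF against 14.0 and 10.5 CPM in iPSC, and Mbnl2 had 214 and 179 CPM in MEF against 18.0 and 14.4 CPM in iPSC (log2 fold changes -3.98 ± 0.28 and -3.60 ± 0.27). Rbfox2, also linked to mesenchymal splicing, was lower at 260.1 and 153 CPM in MEF against 90.1 and 81.8 CPM in iPSC (log2 fold change -1.27 ± 0.24). Rbm47, an epithelial RNA-binding protein, rose with 0.878 and 1.12 CPM in MEF against 33.7 and 31.0 CPM in iPSC, and Rbpms rose with 22.6 and 26.2 CPM in MEF against 159 and 148 CPM in iPSC. Of the 38 genes of RNA processing, 19 were higher and 6 lower (20 and 8 without MEF 2).

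Markers of other cell types were read in both groups, since a bulk sample cannot tell fewer cells of a type from less RNA per cell. The 14 leukocyte markers summed to 14.4 and 22.5 CPM in MEF and 58.5 and 63.7 CPM in iPSC, with 3 of 9 tested members higher and 2 lower. Laptm5, a lysosomal membrane protein, had 0.413 and 0.977 CPM in MEF against 31.8 and 34.6 CPM in iPSC, and the defining Lyz2 had 3.25 and 7.54 CPM in MEF against 0 counts in iPSC. The 14 endothelial markers summed to 157 and 76.1 CPM in MEF and 55.4 and 49.5 CPM in iPSC (6 of 13 higher and 3 lower). The defining Cdh5 had 0.206 and 0 CPM in MEF against 0 counts in iPSC. It was called, as lower, only without MEF 2, where the call rests on the low level of MEF 1 alone. The 14 skeletal muscle markers summed to 109.7 and 81.0 CPM in MEF and 39.4 and 37.6 CPM in iPSC (1 of 7 higher and 1 lower). The 19 chondrocyte, osteoblast and adipocyte markers summed to 599 and 333 CPM in MEF and 184 and 177 CPM in iPSC (2 of 14 higher and 9 lower). Of these, Tnmd of tendon had 62.9 and 59.3 CPM in MEF against 0.0430 and 0 CPM in iPSC, Fabp4 of fat cells had 28.1 and 82.2 CPM in MEF against 0 counts in iPSC, and Alpl, a bone enzyme that pluripotent cells also carry, rose to 156 and 148 CPM. The 18 neural and glial markers summed to 243 and 224 CPM in MEF and 558 and 563 CPM in iPSC (7 of 16 higher and 3 lower). The 21 trophoblast and extraembryonic endoderm markers summed to 7588 and 5202 CPM in MEF, mostly Sparc, and 647 and 675 CPM in iPSC (4 of 14 higher and 4 lower). The part of such cells in the differences above was not tested.

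The effect of MEF 2 followed transcript length. Genes with a mean log2 CPM above 2 were split into 10 bins of exon length, with medians from 892 to 12039 bases. MEF 2 minus MEF 1 went from a median of 1.00 on the log2 scale in the shortest bin to -0.94 in the longest, while iPSC 2 minus iPSC 1 went from 0.07 to -0.08. In the comparison of iPSC with MEF the medians of the bins lay between -0.14 and 0.07 with all libraries. Without MEF 2 they went from 0.63 in the shortest to -0.46 in the longest bin, and without MEF 1 from -0.44 to 0.48. The 2 MEF libraries thus lay on either side of the iPSC libraries in their length profile. Of the shortest bin, 18.3% of genes were higher with all libraries and 43.3% without MEF 2; of the longest, 31.1% were lower with all libraries and 46.3% without MEF 2. Which of the MEF libraries is the nearer to the cells was not tested.

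**Figure D5:**
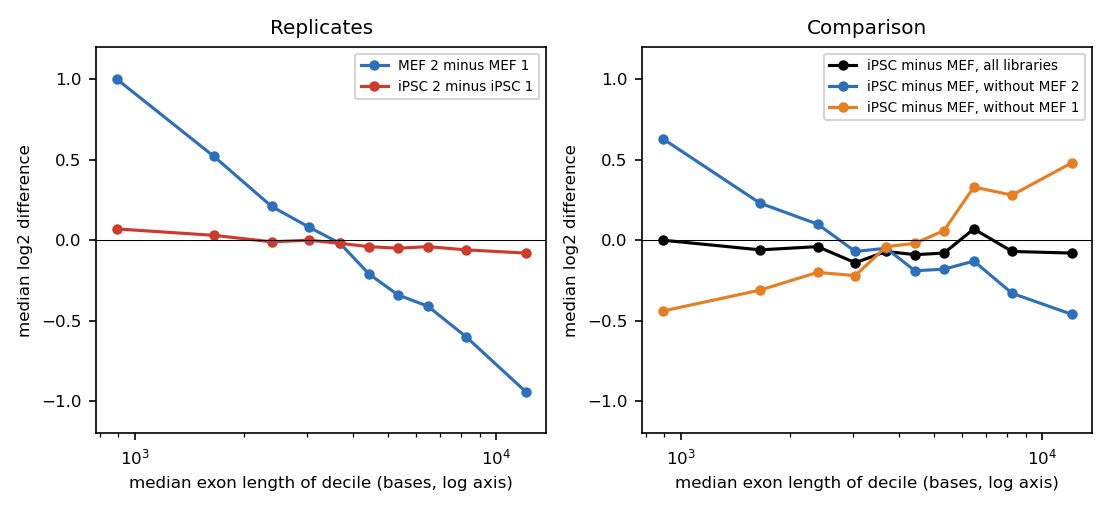
Median log2 difference (vertical axis) in 10 bins of genes by exon length (horizontal axis, bases, log scale). Left, replicate 2 minus replicate 1 of each group; right, iPSC minus MEF with all libraries, without MEF 2 and without MEF 1. The MEF replicates run from 1.00 to -0.94, and leaving out either one tilts the comparison in opposite directions.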

How the data were processed

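Gene counts of 12 poly-A RNA-seq libraries, 2 per group, were used as the authors deposited them, 37583 Ensembl identifiers each; the submitters' processing notes name STAR 2.3.0, Picard 1.100, HTSeq 0.6.0 and the mouse build mm9. The annotation and the strand setting of the counting are not given in the sources used here, so genes that overlap on opposite strands (Tsix with Xist, Col4a1 with Col4a2 and others) are uncertain. Rows for unassigned reads were dropped. Symbols and exon lengths came from GENCODE M21 and matched 32860 identifiers (87.4%). Promoter windows are RefSeq's (GRCm38.p6).

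The test was edgeR 4.0.16 (R 4.3.3), quasi-likelihood, with TMM scaling, filterByExpr, all 12 libraries, 1 mean per group and the contrast iPSC minus MEF, with Benjamini-Hochberg adjustment over all genes tested. A second call used glmTreat at 2-fold. SE is the absolute log2 fold change over the square root of F, and the prior count is 0.125. The biological coefficient of variation was 28.0% with 6 residual and 5.04 prior degrees of freedom. Simulated data had the mean levels and depths of the 12 libraries, the same spread for every gene and no length effect. There, 7.1% of 98 genes changed 2-fold and 81.4% of 102 changed 4-fold were recovered among 16240. Of unchanged genes 0% were called. Few genes were changed there, against 52.7% called in the comparison, so these shares do not carry over to it. Alternatives were DESeq2 1.42.0 size factors and Wald test, limma 3.58.1 voom with sample weights, no filter, 4 libraries, a replicate block, a length correction, and each library left out.

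The 45 gene lists (1464 entries, 22 unmatched) and the comparison itself were chosen with earlier results of these data known. Lists carry no p-value; they are given by counts and medians. Named genes are the 12 per direction with the largest difference in mean CPM among called genes whose groups do not overlap, without predicted genes, pseudogenes, ribosomal protein, mitochondrial and small RNA genes; key list members; up to 4 called members per list and direction with the largest fold change and at least 5 CPM; and members called against their list's direction, or not called where these are 5 or fewer. Brdt, Cnn2, Cox6c, Fmod, Lars2, Mbd4, Myl6, Otx2, Slc25a31, Syce2, Taf9b, Tdrd1, Vcl and Wwtr1 fall outside these rules and were added after their values were seen. Ratios on 1 to 3 reads carry exact 95% counting intervals, which cover counting error only. Some genes of the lists are counted but not reported here by name.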

Additional observations from a re-analysis of the deposited data

How the results depend on the processing

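The counts of 4221 higher and 4336 lower genes, and of 2276 and 2722 genes past 2-fold, stayed within 1.5 times under all but 1 of the 8 other tools and settings: limma voom with sample weights called 919 genes more than 2-fold higher. It weighted MEF 1 and MEF 2 at 0.301 and 0.252 and the iPSC libraries at 2.15 and 1.98, and it lowered the share of higher among called genes from 49.3% to 42.0%; the cause was not tested. With only the 4 libraries of the comparison, 14544 genes were tested, of which 2999 were higher and 3145 lower. Of 313 named genes checked, 33 lost their call, with fewer samples to estimate the spread. Leaving out 1 library gave 3084 to 4689 higher and 3316 to 4815 lower genes, 1676 to 2831 past 2-fold higher and 2107 to 3001 past 2-fold lower. Without MEF 1 the median of all genes moved from 0.04 to 0.20 on the log2 scale. Cox6c, Mki67 and Rarg were called in opposite directions without MEF 2 (0.74, -1.13 and -0.67) and without MEF 1 (-0.77, 1.98 and 0.56). The labels give every group replicates 1 and 2. Deviations of same-numbered MEF and iPSC libraries correlated at 0.05, and those of the 15 pairs of groups at -0.10 to 0.15. With 2 libraries per group and the length difference between the MEF libraries, these values cannot decide whether the numbers pair the libraries. With the replicate block 4100 genes were higher and 4221 lower, 2190 and 2630 past 2-fold. Of 317 named genes checked, 4 lost and 2 gained their call. MEF 2, the shallowest of the 4 libraries, limits low genes in MEF.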

Other observations

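The libraries sorted on days 3 and 6 give a scale for the distance between the end states. Collagens took 5.44% and 1.06% of gene counts in MEF 1 and 2, 0.128% to 0.467% in the 8 intermediate libraries, and 0.0279% and 0.0286% in iPSC. Fibroblast surface genes took 2.29% and 2.39% in MEF, 0.234% to 1.73% in the intermediates and 0.0822% and 0.0784% in iPSC. The core pluripotency factors took 0.0633% and 0.0319% in MEF, 0.114% to 0.236% in the intermediates and 0.737% and 0.713% in iPSC, and the germline list 0.00286% and 0.00355%, 0.00521% to 0.0145%, and 0.0786% and 0.0766%. Glycolysis genes did not lie between the end states: they took 1.49% and 1.35% in MEF, 0.801% to 0.967% in the intermediates and 3.07% and 3.10% in iPSC. CDK inhibitor, D cyclin and p53 pathway genes took 0.536% and 0.480% in MEF, 0.633% to 1.05% in the intermediates and 0.355% and 0.347% in iPSC, again outside the range of the end states. These are values with no test.

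The 14 Y-linked identifiers held 0 and 6 counts in MEF 1 and 2 and 0 and 4 counts in iPSC 1 and 2.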
